A study of Mus musculus with 2 samples.

Results

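Mitochondrial and respiratory chain genes were examined in primary mouse osteoblasts, the cells that build bone, with and without TGF-beta1, a growth factor held in bone matrix. The 41 genes were taken by words in the probe names: they name the mitochondrion, ATP synthase, cytochrome c or NADH dehydrogenase, and none of a set of other words such as kinase, channel or solute carrier. They were 41 of 3757 probes on the array. The other words left out 7 further probes, among them the mitochondrial creatine kinase Ckmt1 and the carrier Slc25a10. The array maker's own code for mitochondrial proteins stood beside 24 of the 41, and beside 76 probes in all. The word rule used no measured value, though the genes were chosen with earlier results of these data known.

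The study set 1 culture without the factor against 1 that received it at 2 ng/ml over 24 h, and it asked which genes respond to this factor. Both cultures were primary murine osteoblasts in alphaMEM medium, serum-starved at 0.2% FBS, and the control shared this starvation. Total RNA of each was labelled with Cy3 and read on a glass array of its own. The strain, age and bone of origin of the mice, and how many animals were pooled, are not stated in the labels. With 1 sample in each group there was no spread between replicates, so no test was run and every difference is one between these 2 arrays. In RNA from a whole culture, fewer cells of a type and less RNA per cell cannot be told apart.

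Mitochondria make ATP by passing electrons from nutrients along the respiratory chain. Complex I takes electrons from NADH, cytochrome c carries them to cytochrome c oxidase (complex IV), and the proton gradient that results drives ATP synthase. Most proteins of this system are coded in the nucleus and imported through the TOM and TIM translocases. Osteoblasts draw on both glycolysis and mitochondrial respiration, and matrix synthesis and mineralization are costly in energy.

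Few of the mitochondrial genes differed between the arrays, and few of all probes did. A larger share of the mitochondrial genes than of all probes gave a measurable signal. A gene was taken as measured when its spot exceeded the authors' signal threshold of 87.4, the brightest lambda phage control spot, on both arrays. This held for 16 of the 41 genes (39.0%), while it held for 795 of all 3757 probes (21.2%). Taken singly, 24.6% of all probes exceeded it on the untreated array and 23.1% on the TGF-beta1 array. The other 25 were under the threshold on both arrays. Of the 16, 9 had a higher signal on the TGF-beta1 array and 7 a lower one, and of all 795 probes 423 were higher and 372 lower. None of the 16 reached a 2-fold difference in either direction, beside 1.51% of all 795 probes at least 2-fold higher and 2.26% at least 2-fold lower. The median log2 ratio of treated over untreated signal was 0.03 over the 16 genes and 0.03 over all 795 probes. The SD of the log2 ratio over genes was 0.42 and 0.44.

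Single genes differed by more than 1.5-fold. Mtch1, an outer membrane protein of the carrier family, was 1.68-fold higher with TGF-beta1. Timm10, a small chaperone of protein import, was 1.69-fold lower, and the malate dehydrogenase Mdh2 was 1.60-fold lower. These were 1 gene higher and 2 lower of 16 by at least 1.5-fold, beside 7.17% and 8.18% of all probes measured on both arrays, so their number was near the background. The remaining 13 of 16 (81.2%) lay within 1.5-fold, as did 84.7% of all 795 probes.

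**Figure D1:**
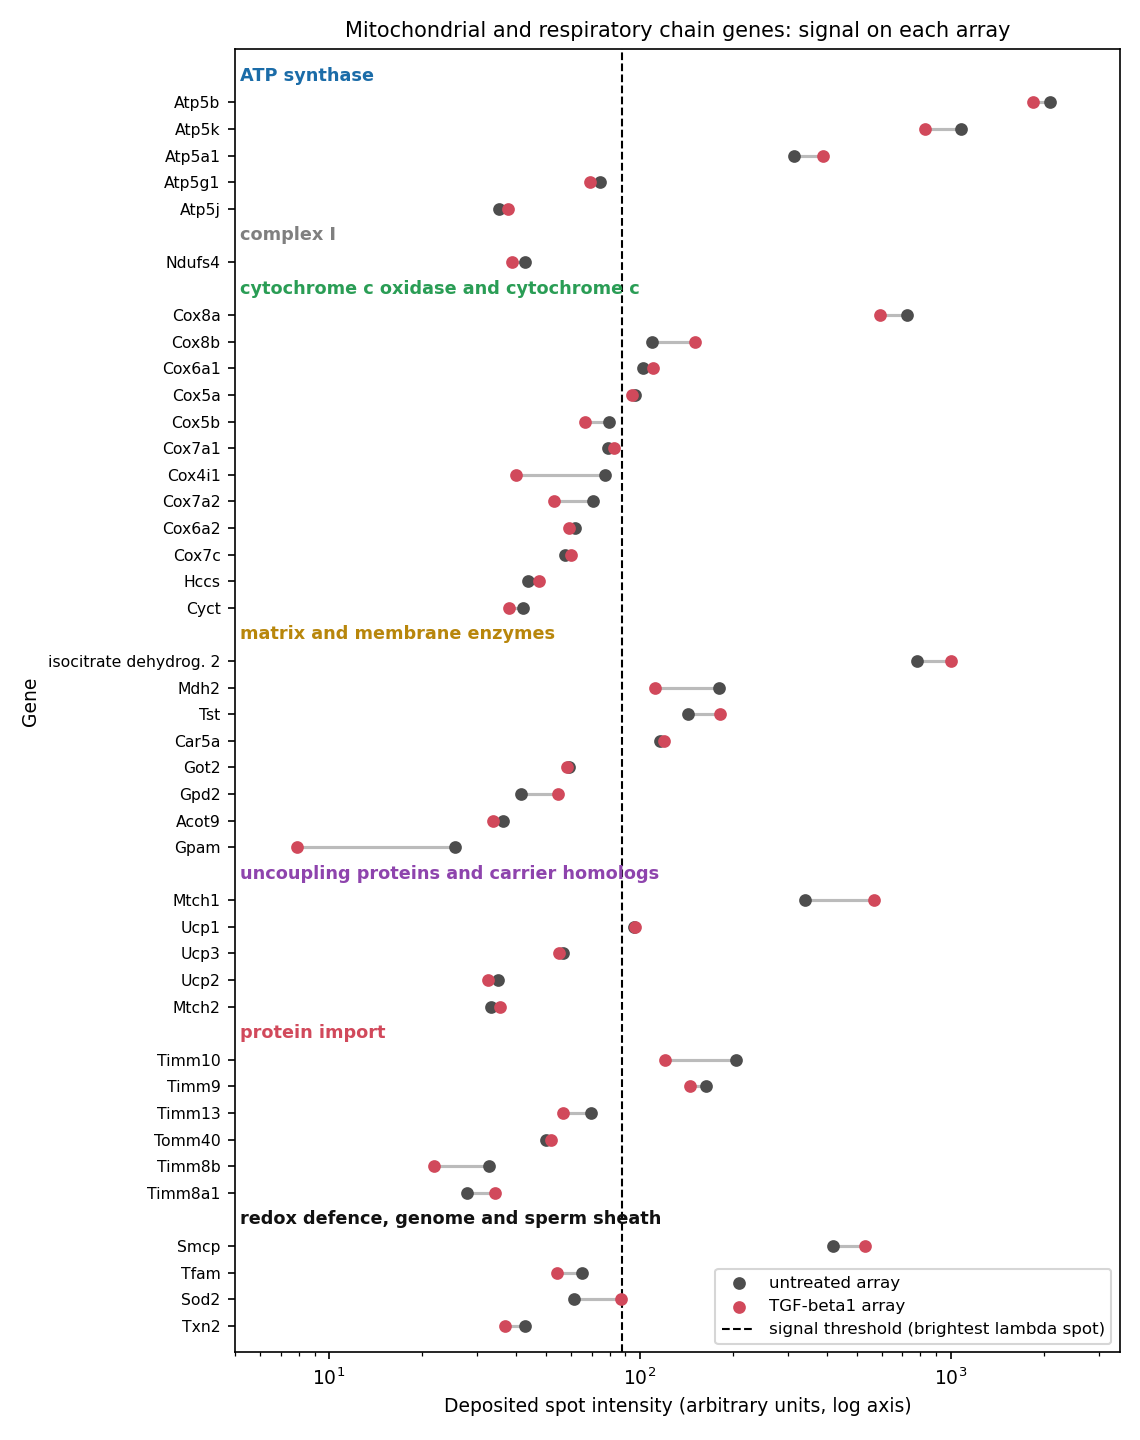
Deposited spot intensity of each of the 41 genes (log axis, arbitrary units) on the untreated array (grey points) and the TGF-beta1 array (red points), 1 spot per array, grouped by role, with a line joining both points of a gene. The dashed line is the signal threshold of 87.4; 16 genes lie to its right on both arrays and 25 to its left on both.

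The promoters of 5 genes are shown, because 3 of these genes had the largest differences among the 16 and the other two, Cox8a and Cox8b, are a widely expressed and a tissue-restricted form of the same subunit with opposite signs. The sequences are from RefSeq on GRCm38.p6 and run 5′ to 3′ across the start site. Capitals mark the ETS core CCGGAAG on either strand and the TATA box TATAAA on the strand shown. Of the 2 starts that RefSeq gives for Mtch1, the upstream one is shown.
Mtch1 (chr17:29347883-29348182, minus strand): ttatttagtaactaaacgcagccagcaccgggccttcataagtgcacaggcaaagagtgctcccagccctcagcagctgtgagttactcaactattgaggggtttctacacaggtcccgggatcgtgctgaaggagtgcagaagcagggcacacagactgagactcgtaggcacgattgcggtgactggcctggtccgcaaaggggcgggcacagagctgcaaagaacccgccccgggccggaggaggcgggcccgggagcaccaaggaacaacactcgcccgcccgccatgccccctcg
Timm10 (chr2:84826771-84827070, plus strand): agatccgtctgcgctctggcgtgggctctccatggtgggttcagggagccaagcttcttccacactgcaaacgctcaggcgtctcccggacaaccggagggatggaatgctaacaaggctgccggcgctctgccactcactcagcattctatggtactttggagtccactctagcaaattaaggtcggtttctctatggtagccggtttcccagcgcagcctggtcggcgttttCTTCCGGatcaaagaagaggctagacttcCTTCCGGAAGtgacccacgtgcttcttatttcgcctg
Mdh2 (chr5:135778399-135778698, plus strand): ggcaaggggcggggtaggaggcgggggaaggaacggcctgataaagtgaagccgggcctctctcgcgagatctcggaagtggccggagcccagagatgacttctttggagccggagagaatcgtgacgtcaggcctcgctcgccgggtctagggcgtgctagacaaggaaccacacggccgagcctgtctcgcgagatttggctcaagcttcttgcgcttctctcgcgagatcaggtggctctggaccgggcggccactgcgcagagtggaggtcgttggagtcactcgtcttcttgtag
Cox8a (chr19:7217567-7217866, minus strand): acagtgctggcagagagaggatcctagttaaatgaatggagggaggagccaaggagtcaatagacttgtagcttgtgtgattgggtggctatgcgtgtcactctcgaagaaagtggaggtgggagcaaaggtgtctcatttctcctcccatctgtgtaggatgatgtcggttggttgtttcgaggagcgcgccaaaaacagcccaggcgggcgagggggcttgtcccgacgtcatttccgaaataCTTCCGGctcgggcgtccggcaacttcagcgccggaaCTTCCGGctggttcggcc
Cox8b (chr7:140900397-140900696, minus strand): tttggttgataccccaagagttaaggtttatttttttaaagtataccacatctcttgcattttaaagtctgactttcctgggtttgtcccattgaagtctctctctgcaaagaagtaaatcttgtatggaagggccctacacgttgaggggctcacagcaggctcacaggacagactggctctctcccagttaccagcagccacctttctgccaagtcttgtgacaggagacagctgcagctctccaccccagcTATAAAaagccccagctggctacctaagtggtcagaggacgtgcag

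Timm10 had 3 matches to the ETS core, a motif bound by the GABP factor among others, and a pair of them overlap as the palindrome CTTCCGGAAG. Cox8a had 2 matches, and Mtch1, Mdh2 and Cox8b had 0 in this window. Cox8b alone of the 5 held a TATA box, and it had 2 CpG dinucleotides, where the other four had 18 to 27. Of the 40 genes with a symbol, 36 had a promoter in the RefSeq table. The ETS core was in 10 of these 36 (27.8%) and in 8.86% of all 32841 promoters of the same length, of which a gene can have several. The palindromic NRF1 core, which marks many genes of the respiratory chain, was in 2 of 36 (Atp5k and Cox6a1) and in 0.971% of all. The palindrome bound by SMAD proteins, the factors that act below the TGF-beta receptor, GTCTAGAC, was in 1 of 36, Smcp, and in 0.213% of all, and the SMAD-bound CAGA box AGCCAGACA, on both strands, was in 0 of 36 and in 0.387% of all. TATAAA was in 2 of 36 (Acot9 and Cox8b) and in 8.32% of all. The median number of CpG was 18 in the 36 promoters and 7 in all promoters. These matches describe letters in a window and show no binding.

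ATP synthase went both ways across its subunits. Its catalytic beta subunit, Atp5b, had a signal of 2086 untreated and 1837 with TGF-beta1, a log2 ratio of -0.18. The alpha subunit Atp5a1, which forms the catalytic head with beta, had 313 and 389.7, a log2 ratio of 0.31. These partners thus had opposite signs on the deposited scale. The ratio of Atp5b turned to 0.17 once the median of its block, dim probes included, was taken off, as described below. Subunit e, Atp5k, a membrane sector subunit that helps the enzyme form dimers, had 1082 and 825, a log2 ratio of -0.39 or 1.31-fold lower. Atp5g1, a gene for the ring subunit c, had 74.4 and 69.0, and Atp5j, another membrane sector subunit, had 35.3 and 37.8, both under the threshold on both arrays.

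Of cytochrome c oxidase, 10 subunit probes were on the array and 4 were measured on both arrays. Cox8a, the widely expressed form of subunit VIII, had 726 untreated and 591 with TGF-beta1, a log2 ratio of -0.30. Cox8b, the form of heart, skeletal muscle and brown fat, had 109 and 151, a log2 ratio of 0.47. The 2 forms of one subunit therefore differed in sign, 1.23-fold lower and 1.38-fold higher, and their spots lay side by side. Cox6a1, the widely expressed form of subunit VIa, had 102 and 111, and Cox5a had 96.9 and 94.3, close to the threshold on both arrays, with log2 ratios of 0.11 and -0.04. The median of the 4 was 0.04.

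The other 6 subunits of cytochrome c oxidase were under the threshold on both arrays, so no fold is given for them. Cox4i1, the usual form of subunit IV, had 77.4 untreated and 39.9 with TGF-beta1. Cox5b had 79.7 and 66.5, and Cox7a2, the widely expressed form of subunit VIIa, had 70.7 and 52.9. Cox7a1 and Cox6a2, forms of heart and skeletal muscle, had 78.9 and 82.5, and 61.8 and 59.1. Cox7c had 57.3 and 60.2. A probe under the threshold has only an upper bound, and since these subunits are made in most cells, a dim spot here does not show that the gene was off. The same holds for the single complex I probe, Ndufs4, with 42.8 and 38.9, for the testis form of cytochrome c, Cyct, with 42.1 and 37.9, and for Hccs, the enzyme that attaches heme to cytochrome c, with 43.9 and 47.3. None of the fixed gene symbols of complexes II and III was matched to a probe, and these complexes are not analysed here.

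**Figure D2:**
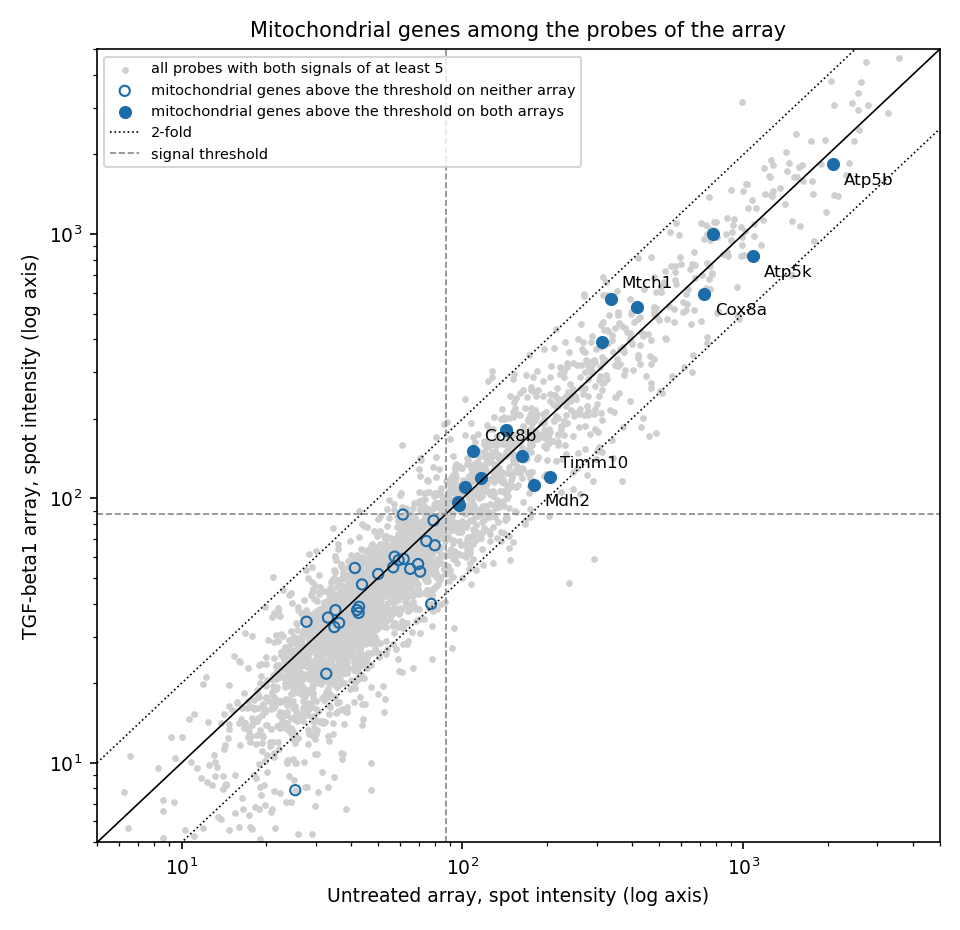
Spot intensity on the TGF-beta1 array against that on the untreated array (both log axes) for all probes with signals of at least 5 (grey) and for the mitochondrial genes above the threshold on both arrays (filled blue, 16 genes) or on neither (open blue, 25 genes). All filled points lie between the dotted 2-fold lines; Mtch1, Timm10 and Mdh2 lie farthest from the diagonal of equal signal.

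Enzymes of the mitochondrial matrix and membranes also split. Mdh2, which turns malate to oxaloacetate in the TCA cycle, had 179.8 untreated and 112 with TGF-beta1, a log2 ratio of -0.68. The probe that the file names isocitrate dehydrogenase 2, an enzyme that makes NADPH in the matrix, had 782.5 and 1003, a log2 ratio of 0.36. Its accession was not in the table of gene symbols, so it carries the file's name. Tst, the rhodanese that transfers sulfur to cyanide, had 143 and 182, a log2 ratio of 0.35. Car5a, the mitochondrial carbonic anhydrase known mainly from liver, had 116 and 119.7, a log2 ratio of 0.05. Of the 4, 3 had higher signals and 1 a lower one, which became 2 and 2 once block medians were taken off and 1 higher and 3 lower once neighbour medians were. Under the threshold were the aspartate aminotransferase Got2 (59.3 and 58.4), the glycerol phosphate shuttle enzyme Gpd2 (41.4 and 54.6), the acyl-CoA thioesterase Acot9 (36.4 and 33.8) and Gpam, the first enzyme of glycerolipid synthesis (25.4 and 7.88). Gpam lay in block E4, whose median log2 ratio was -0.55.

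Among carriers, Mtch1 had 339 untreated and 569 with TGF-beta1, a log2 ratio of 0.75, the highest of the 16. Its close relative Mtch2, a protein insertase of the outer membrane, had 33.2 and 35.4, under the threshold on both arrays. Ucp1, the uncoupling protein of brown fat that turns the proton gradient to heat, had 96.1 and 96.7, barely over the threshold and with a log2 ratio of 0.01. Ucp2 had 35.0 and 32.6, and Ucp3, the form of skeletal muscle, 56.7 and 54.9, both under the threshold.

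The protein import genes measured on both arrays were Timm9 and Timm10, whose products form the chaperone of the intermembrane space that guides membrane proteins to the inner membrane. Timm10 had 205 untreated and 121 with TGF-beta1, a log2 ratio of -0.76, the lowest of the 16. Timm9 had 163 and 145, a log2 ratio of -0.17, so both partners had lower signals, by 1.69-fold and 1.13-fold. The names beside these spots are older ones. The file calls the Timm10 spot translocase 13 homolog a, the Timm9 spot translocase 10 and the Timm13 spot translocase 9, and the symbols used here follow the accessions, for which RefSeq lists these older names as synonyms. Timm13 had 69.5 and 56.5, Timm8b 32.7 and 21.7, Timm8a1 27.8 and 34.2, and the outer membrane pore Tomm40 had 50.1 and 51.8, all under the threshold on both arrays.

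Of the remaining genes, Smcp, a cysteine-rich protein of the sperm mitochondrial sheath, had 419 untreated and 529 with TGF-beta1, a log2 ratio of 0.33. Smcp is known from testis, and whether the signal of its spot came from this gene alone was not tested. Sod2, the superoxide dismutase of the matrix, had 61.4 and 86.9, just under the threshold on the treated array. Txn2, the mitochondrial thioredoxin, had 42.7 and 36.9, and Tfam, which packages and transcribes mitochondrial DNA, had 65.1 and 54.2. The 25 genes under the threshold ranged from 25.4 to 79.7 on the untreated array and from 7.88 to 86.9 on the treated array.

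**Figure D3:**
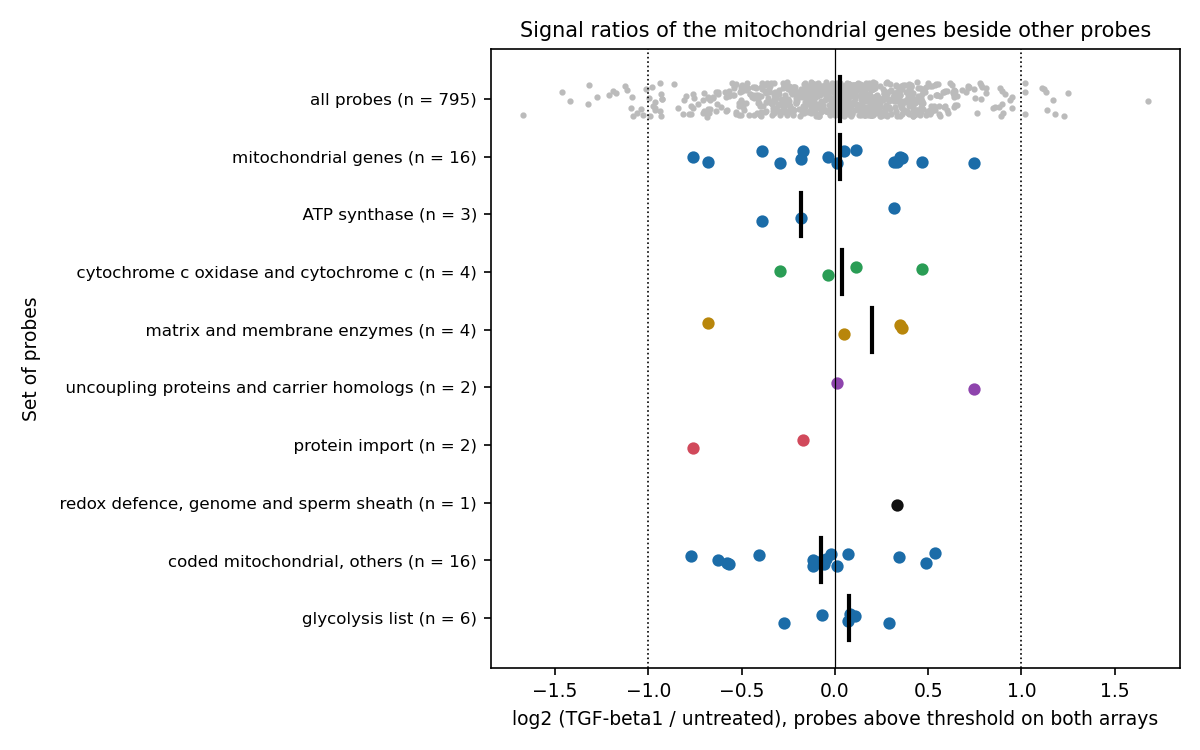
Log2 ratio of TGF-beta1 over untreated intensity for probes above the threshold on both arrays, with 1 point per probe, for all 795 probes, the 16 mitochondrial genes, their role groups, the 16 other probes coded mitochondrial and the 6 glycolysis genes. Black bars are medians, drawn for sets of 3 or more, and dotted lines mark 2-fold; no mitochondrial gene reaches them.

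Adjustment for place on the array moved some of these ratios. Spots are printed in blocks, and blocks differed in their median ratio, so the median of a gene's block or of its neighbours was subtracted as a check. These medians took in dim probes, and 2762 of all 3757 probes were above the threshold on neither array. Whether the measured spots of a block shared the shift of its dim spots was not tested. Atp5b, in block B1 with a block median of -0.46, went from -0.18 to 0.17 and 0.26. Isocitrate dehydrogenase 2, in a block with a median of 0.15, went from 0.36 to 0.10 and -0.07, so its higher signal was not kept after subtraction of neighbour medians. Car5a went from 0.05 to -0.15 and -0.26, and Smcp from 0.33 to 0.25 and 0.08. The direction was kept for the 3 genes with the largest differences. Mtch1 had 0.69 and 0.71 after the adjustments, Timm10 had -0.61 and -0.85, and Mdh2 had -0.77 and -0.81. Cox8a and Cox8b, in neighbouring spots of block C3, kept -0.30 and -0.32, and 0.47 and 0.51.

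**Figure D4:**
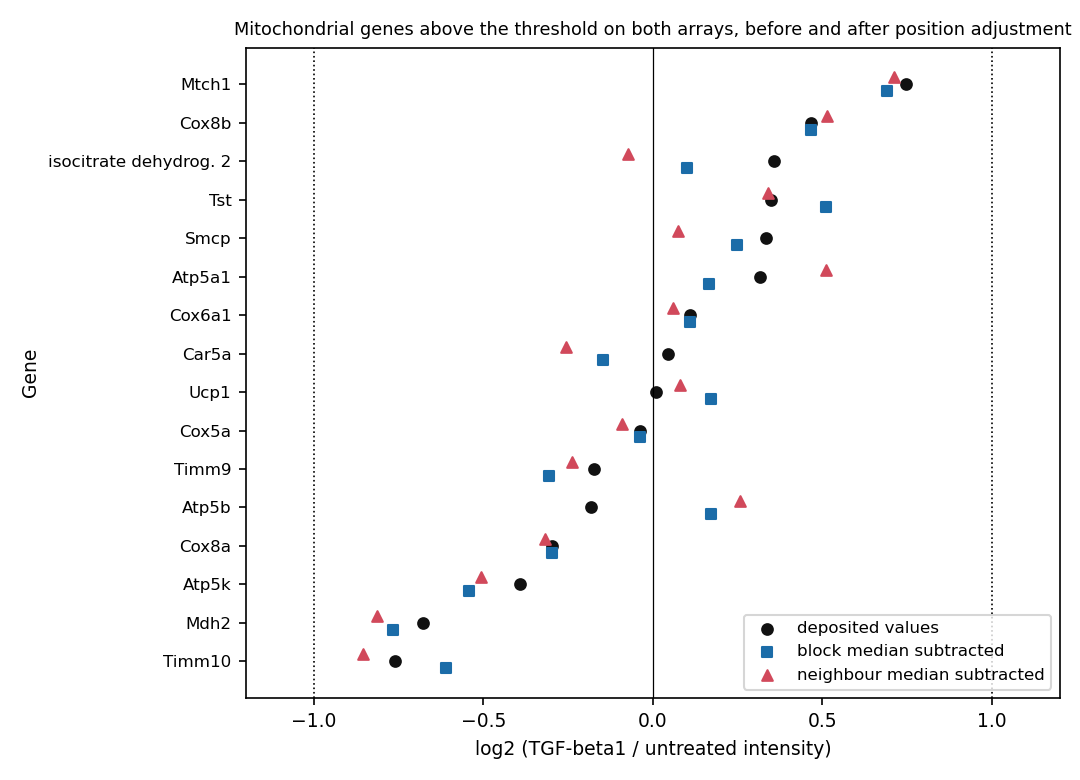
Log2 ratio of TGF-beta1 over untreated intensity of the 16 measured genes in the deposited values (circles), after subtraction of the block median (squares) and of the neighbours' median (triangles). Mtch1 stays at the top and Timm10 and Mdh2 at the bottom, all within the dotted 2-fold lines, while Atp5b, Car5a and isocitrate dehydrogenase 2 cross 0.

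Other genes of the same pathways were taken from fixed lists and matched to probes by symbol, so probes without a symbol were not counted. Of 14 lists of mitochondrial functions and glycolysis, 6 had at least 3 genes measured on both arrays, and none of the measured genes in these 6 reached 2-fold. In the pyruvate dehydrogenase and TCA cycle list 3 of the 7 genes matched by symbol were measured, all lower. Their median log2 ratio was -0.68, and 2 of the 3 were at least 1.5-fold lower, beside 8.18% of all measured probes. Besides Mdh2 the 3 were Pdha2 and Idh3g. Pdha2, the testis form of the pyruvate dehydrogenase alpha subunit, had 154 untreated and 89.8 with TGF-beta1, the latter barely over the threshold. Its log2 ratio of -0.77 exceeds in size any of the 16 measured mitochondrial genes. Whether the signal of the Pdha2 spot came from this gene alone was not tested. Idh3g, a regulatory subunit of the NAD-linked isocitrate dehydrogenase, had 177 and 171, a log2 ratio of -0.05. The usual pyruvate dehydrogenase alpha subunit, Pdha1, named after its values were seen, had 45.1 and 39.6, under the threshold. The list also names isocitrate dehydrogenase 2, whose probe had no symbol and was not counted. Its signal was higher with TGF-beta1, with a log2 ratio of 0.36. In the import and chaperone list 3 of 11 were measured, all lower, and the third beside Timm9 and Timm10 was Hspe1, the lid of the matrix chaperonin, with 771 and 710, a log2 ratio of -0.12. In fatty acid oxidation 2 of 8 were measured, Eci1, an enoyl-CoA isomerase, at 0.01 and Cpt1b, the muscle form of the carnitine palmitoyltransferase that admits fatty acids, at -0.41. In the amino acid and related list 4 of 13 were measured, with Ckmt1, the mitochondrial creatine kinase, at 999 and 1451, a log2 ratio of 0.54, and Dbt at -0.12, Gcdh at -0.06 and Bckdha at -0.02.

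Regulators of mitochondrial content were mostly too dim to compare. Of 8 genes of the biogenesis, genome maintenance and dynamics list on the array, Phb2, a prohibitin of the inner membrane, was measured, with 195 and 158 and a log2 ratio of -0.30. The coactivator Ppargc1a, with 56.9 and 54.3, and Gabpa, the DNA-binding subunit of GABP, with 57.7 and 58.7, were under the threshold on both arrays and are named after their values were seen. None of the 7 redox defence genes and none of the 6 cell death factors matched by symbol exceeded the threshold on either array. The redox defence list also names isocitrate dehydrogenase 2, whose probe had no symbol and exceeded the threshold on both arrays. In the uncoupling and carrier list 2 of 9 were measured, Ucp1 and the dicarboxylate carrier Slc25a10, which had 96.9 and 112.7, a log2 ratio of 0.22, and of 3 electron carriers none was. Of 12 glycolysis genes matched by symbol 6 were measured, 4 higher and 2 lower, with a median log2 ratio of 0.08 and a range from -0.27 to 0.29. After subtraction of block medians the glycolysis median was -0.04, so its sign was not kept. The listed glyceraldehyde-3-phosphate dehydrogenase had a probe without a symbol, which was not counted. It had 444 untreated and 418 with TGF-beta1, a log2 ratio of -0.09.

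The array maker's code for mitochondrial proteins, which the choice of the 41 genes did not use, marked 52 further probes. Of these 16 were measured on both arrays, 5 higher and 11 lower, with a median log2 ratio of -0.08, beside 423 higher and 372 lower of all 795 probes. None reached 2-fold, none was at least 1.5-fold higher and 2, Pdha2 and Cpox, were at least 1.5-fold lower. Besides Pdha2, Ckmt1 and the genes above, and chosen after their values were seen, Cpox, an enzyme of heme synthesis, had 334 and 216, a log2 ratio of -0.63 that was -0.63 and -0.71 after the position adjustments. Cyp24a1, which breaks down active vitamin D, had 152 and 213, a log2 ratio of 0.49, or 0.50 and 0.44. Acsl1, which activates fatty acids, had 2094 and 1403, a log2 ratio of -0.58 that turned to 0.16 and 0.14. The medians subtracted here include dim probes. Over all 76 coded probes 26 were measured on both arrays, with 12 higher and 14 lower and a median of -0.03.

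Several measured genes are known from tissues other than bone, and markers of those tissues were read on the same arrays. Of 7 adipocyte markers on the array, 3 of them among the 41 genes, 4 were above the threshold on both arrays, 3 higher and 1 lower with TGF-beta1. The higher ones were Cox8b, Ucp1 and Cfd, the serine protease adipsin, with 294 and 334, and the lower one was Cidea, a lipid droplet protein of brown fat, with 708 and 471. Pparg, the master factor of fat cells, had 17.3 and 6.33 and Lpl 32.6 and 31.0, under the threshold. The summed signal of the 7 was 1336 untreated and 1172 with TGF-beta1, a direction set by Cidea, the brightest. The other 6, Cox8b itself among them, summed to 628 and 701. The log2 ratio of Cidea was -0.59, and -0.45 and -0.20 after subtraction of block and neighbour medians. Of 9 muscle markers, with Cox6a2 among them, 5 were above the threshold on both arrays, 2 higher and 3 lower. Their summed signal was 2395 and 2071, and without the brightest, the troponin gene Tnnc2 with 808 and 502, it was 1587 and 1569. Osteoblast markers differed among themselves. Of the 8, 4 were above the threshold on both arrays: the osteocalcin gene Bglap had 846 and 840, the collagen gene Col1a2 1174 and 1132, the matrix protein gene Sparc 946 and 631, and the alkaline phosphatase gene Alpl 94.1 and 124. The log2 ratio of Sparc was -0.58, and 0.04 and 0.01 after subtraction of block and neighbour medians. These medians include dim probes, and the part of place on the array in the lower signal of Sparc was not tested. The bone sialoprotein gene Ibsp had 239.9 and 47.9 and the cadherin gene Cdh11 142 and 83.2, both under the threshold on the TGF-beta1 array. The sum over the 8 was 3565 and 2992 in the deposited values, with no adjustment for place on the array. Without Col1a2, the brightest, it was 2391 and 1860. Sparc and Ibsp had the largest drops in signal of the 8. The part of other cells in the ratios of Cox8b and Ucp1 was not tested. None of the 3 chondrocyte markers, of the 3 macrophage and osteoclast markers and of the 3 steroidogenic and liver markers exceeded the threshold on both arrays. The osteoclast marker Ctsk exceeded it on the untreated array only, with 95.8 untreated and 56.8 with TGF-beta1. The same held for the muscle marker Tnnc1, with 109 and 73.0.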

How the data were processed

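RNA of 1 untreated and 1 TGF-beta1 culture was read on 2 arrays in 1 colour (Cy3). The authors deposited linear spot intensities already normalized by a method called global, per the file headers, which name the Atlas Glass Mouse 3.8 array and Atlas Iris 1.01. The background appears subtracted, since 3 intensities lay below 0, and its estimate is not given in the sources used here. The authors' deposited ratio is treated over untreated intensity and served to join probe names to probe identifiers. In 8 sheets 16 columns of per-sample values matched no sample label and were not used. Of 3774 spots, 17 control spots had no identifier.

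Symbols came from accessions in a RefSeq table of GRCm38.p6 and were found for 40 of the 41 genes. The measure was the log2 of treated over untreated intensity, with nothing added, for probes above the threshold on both arrays. The number of arrays limits the precision: each value rests on 1 spot. The only repeats were 8 lambda spots; the SD of their log2 ratio was 0.20. For place on the array, the median log2 ratio of the block, or of neighbours within 2 rows and 2 columns, was subtracted. These medians included probes under the threshold, and the median of all probes, -0.10, was added back. Alternatives were quantile, median, total-signal and loess (span 0.4) normalization, an offset of 96.7, other thresholds and other choices of genes. The sums without the brightest marker, the set of coded probes without the 41 genes and the position checks of the lists were added after seeing the data. The code was tested on simulated data, with Python 3.11.15, pandas 2.3.3 and statsmodels 0.14.6. Every chosen gene above the threshold is named, and up to 4 measured genes of each further list. The genes and lists were chosen with earlier results of these data known.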

Additional observations from a re-analysis of the deposited data

How the results depend on the processing

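The count of 0 genes at least 2-fold higher and 0 lower among the measured mitochondrial genes held under quantile and loess normalization and both position adjustments. It also held with the left-out probes put back. Median and total-signal normalization, which shift every ratio by the same small amount, gave the same count. Some settings could not change a count of 0. The offset only shrinks ratios, and the authors' deposited ratio is the same quotient. The stricter signal threshold and the choice of respiratory chain and ATP synthase genes alone take only part of the 16. The count became 1 lower, the dim Gpam, with no filter on dim probes, and 1 higher and 2 lower at 1.5-fold. The median log2 ratio of 0.03 became 0.31 over the 7 genes above 2 times the threshold, where all probes so chosen had 0.07, and -0.01 after subtraction of neighbour medians. With no filter it was -0.04 over 41 genes, beside -0.10 over all probes. The number of genes measured fell from 16 to 7 at 2 times the threshold and was 18 at the lambda mean. Of 112 values of single genes under an alternative, 103 moved by less than the lambda SD of 0.20. The values under median and total-signal normalization were bound to, because these shift every gene by the same small amount. The lambda spots are dim, so their SD does not give the noise of brighter genes. Of the 16 genes, 11 never turned sign. Cox5a turned under quantile normalization and Ucp1 under division by the total signal, both from near 0. The cause of these shifts was not tested. No paired analysis was possible because each group had 1 sample. Dim spots limit what can be seen: a change in the 25 genes under the threshold was not measurable here.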
